A study of Homo sapiens with 12 samples.

Results

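Eliglustat and venetoclax were each given alone and together to MV-4-11 cells, so every transcript had a measured level under both drugs and a level that would follow if the 2 single-drug differences from vehicle added up. The departure of the first from the second is described here. It was computed as (Comb minus ABT) minus (ELI minus DMSO) from the group means of log2(FPKM + 1), where FPKM is a read density per kilobase of gene model scaled to library size, and it is called the interaction below. All 12 libraries of the series entered it, and of 20036 genes in the table the 9959 that reached 1 FPKM in at least 3 libraries were tested. A positive value means a Comb level above the sum and a negative value a level below it.

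MV-4-11 is an established myelomonocytic line of acute myeloid leukemia whose cells carry KMT2A-AFF1 and a FLT3 receptor with an internal tandem duplication, with a genotype labelled wild type. The 4 groups of 3 libraries held cells given DMSO as vehicle, eliglustat (ELI), venetoclax, also named ABT-199 (ABT), or both drugs (Comb), for 48 h and at doses not given in the sources used here. All were grown in medium with fetal bovine serum, penicillin and streptomycin, and every result rests on this 1 line. Of 12 markers of a myelomonocytic leukemia, 10 reached 1 FPKM in at least 1 library, and CD14 and CD68 did not. The summed level of the 4 T cell markers in the table was at most 0.049 FPKM in any library, and the 5 erythroid and 5 stromal markers stayed below 1 FPKM each. Of 5 epithelial markers, KRT8 and KRT18 reached 1 FPKM, and the 5 summed to 5.48 to 7.01 FPKM in DMSO, 2.56 to 3.31 in ELI, 5.48 to 6.59 in ABT and 3.30 to 3.91 in Comb. Of 5 megakaryocyte markers, ITGA2B and GP1BA reached 1 FPKM, and the 5 summed to 3.63 to 5.31 FPKM over all libraries. The part of these markers in the results was not tested.

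Eliglustat blocks glucosylceramide synthase, the product of UGCG, which commits ceramide to glycosphingolipids. Venetoclax occupies the groove of BCL2, the protein that holds pro-death relatives in check at mitochondria. When cells leave the cycle, E2F factors give way to repressors at the promoters of genes for DNA synthesis, and cells under oxidative or heme stress induce targets of the transcription factor NRF2, among them heme oxygenase. The title of the series concerns venetoclax sensitivity and the small GTPase RAB32 where the endoplasmic reticulum touches mitochondria.

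Library totals recovered from the FPKM steps were 17259908 to 21082311 reads. Replicate 1 of DMSO, ELI and ABT stood apart from the other 2 libraries of its group in a way that followed GC content. Spearman's rho of its deviation from the group mean with GC content was -0.79, -0.70 and -0.70 across 9936 genes. DMSO replicate 2 (0.81), ELI replicate 2 (0.69) and ABT replicate 3 (0.62) deviated the opposite way, which a deviation from the group mean in part entails. The 3 Comb libraries had weaker trends (-0.29 to 0.26), and their replicates were closest to each other. Chi-square per degree of freedom between recovered read counts was 2.45 to 3.79 within Comb and 4.67 to 66.21 within the other groups. Whether Comb libraries were prepared apart from the others is not given in the sources used here, and such a difference cannot be told apart from the combination. The interaction itself had a rho of -0.50 with GC content across genes, which are not independent replicates. Counts are therefore given also with each library's trend on GC content and gene length removed (called trend removed below, rho -0.02 after removal) and, in most lists, without the 4 libraries numbered 1. The labels do not say whether the 3 libraries of each group were separate cultures, so the p-values cover only the spread among these libraries, and that spread may be technical.

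Among genes that passed the threshold with all libraries, more lay below the sum than above it, and those below included many cell cycle transcripts. By limma with Benjamini-Hochberg adjustment over all 9959 genes, 532 genes had an adjusted p under 0.05 and are called here (5.34%), 167 above the sum (1.68%) and 365 below it (3.67%). At an unadjusted p under 0.05 there were 2140 genes (21.5%). Lists of DNA replication, G1/S control, mitosis and recombination repair held 95 of the 365 genes below the sum and 1 of those above it, among 157 tested members. Lists of NRF2 targets, lysosome and MHC class II had 97 tested members. They held 16 of the 167 genes above the sum and none of those below it. Shares above the sum differed, at 25.8%, 5.45% and 45.5%. Both groupings of lists were made with their counts known, so the balance between directions is partly a result of the choice. The glycosphingolipid and ceramide list had 3 above and 1 below, and the integrated stress response list 2 above and 4 below. In no list were 130 genes above the sum and 246 below it. The median size was 0.56 for genes above the sum and -0.63 for genes below it, against a median of 0.02 over all genes, and 10 and 45 genes reached 1 on the log2 scale. The last gene inside the threshold was HNRNPUL1 (interaction -0.43, limma adjusted p = 0.0499) and the first outside was FAM72D (-0.53, 0.05).

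The count and its balance moved with the libraries that stand apart. Without the 4 libraries numbered 1, 1801 genes were called by limma, 1072 above and 729 below the sum, so genes below made up 40.5% of calls against 68.6% with all libraries. Removing the GC content and length trend gave 1694 calls, 688 above and 1006 below. Counts of gene lists in both settings are to be read against these totals over all 9959 tested genes. Leaving out DMSO replicate 2 alone gave 1123 calls. Leaving out ELI replicate 2 (351), ELI replicate 3 (322), ABT replicate 2 (326), Comb replicate 2 (331) or Comb replicate 3 (332) moved the count down by more than 1.5 times. No called gene that was tested changed direction in any of 23 settings, and 255 genes, 39 above and 216 below, were called in all 23.

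**Figure D1:**
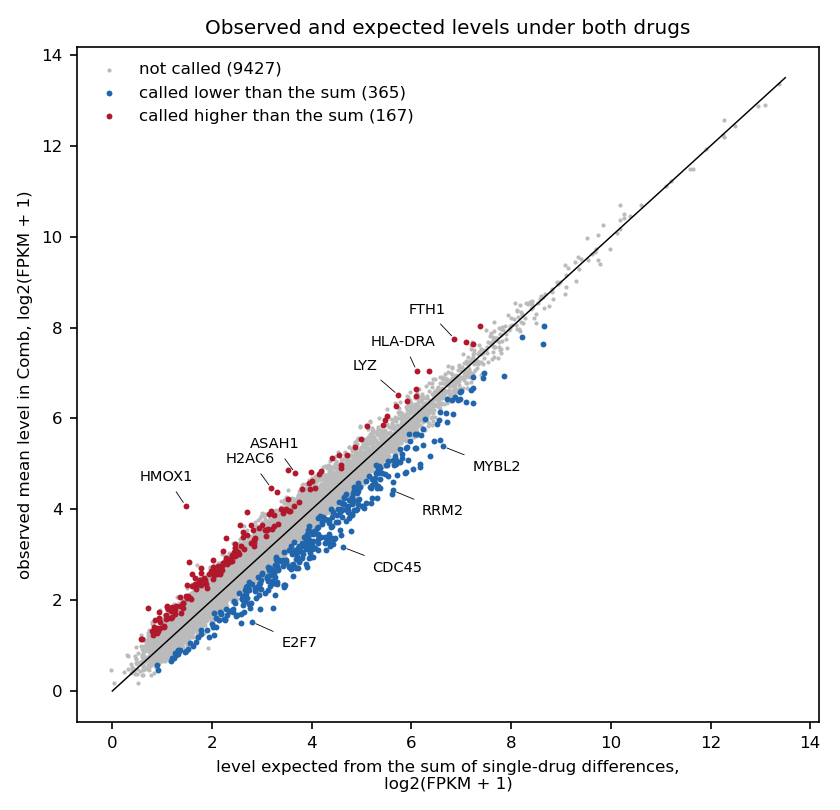
Mean level of each tested gene in Comb (vertical axis) against the level expected if the differences of the single drugs from DMSO added up (horizontal axis), both as log2(FPKM + 1), with the line of equality. The 167 genes called above the sum (red) and 365 called below it (blue) flank 9427 genes that were not called (grey), and HMOX1 lies farthest above the line among called genes.

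Nearly all calls were cases in which Comb was the extreme group. Its mean was the highest of the 4 groups for 151 of the 167 genes above the sum and the lowest for 360 of the 365 below it. That place of Comb is in part a consequence of the contrast, and its share over all tested genes is not given here. The 3 Comb libraries lay beyond the other 9 for 137 of the genes above the sum and 348 of those below it. This too is a consequence of the contrast in part, and it held for 24.2% of all tested genes. Genes below the sum had median differences from DMSO of -0.41 in ELI, 0.10 in ABT and -0.96 in Comb. Genes above the sum had medians of 0.23, -0.18 and 0.62. These 3 differences share the DMSO libraries, and they describe genes that were chosen by a contrast of the same values. In 88 genes below the sum and 63 above it, venetoclax libraries lay on 1 side of their control without eliglustat and on the other side with it, with no overlap either time. That order is in part a consequence of choosing genes by this contrast, and its share over all tested genes is not given here.

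The sum can also be taken on the linear scale, where single-drug differences in FPKM add. The direction was the same on that scale for 531 of the 532 genes. The exception was S100A9, a calcium-binding alarmin of myeloid cells, named here after its values were seen. Its mean was 127 FPKM under vehicle, 32.6 under eliglustat, 98.6 under venetoclax and 14.9 under both, so that the interaction was -0.72 on the log2 scale and the departure was 1.58 from the linear sum. Its call (limma adjusted p = 0.02) was lost without ELI replicate 3, ABT replicate 3 or Comb replicate 2.

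Of 53 tested genes of a list of DNA replication and S phase, 45 were called below the sum and none above it, and the median interaction was -0.89. There were 48 below the sum without the libraries numbered 1, 52 with the trend removed, and leaving out single libraries gave 42 to 47. All 53 had a negative interaction, from -1.46 to -0.20. The list does not hold ORC2 to ORC5 or RFC1, the large subunit of the clamp loader, whose interactions were positive but not called (RFC1 0.07, limma adjusted p = 0.91). The 8 of the list that were not called included POLA1 (-0.35, limma adjusted p = 0.28) and RPA2 (-0.21, limma adjusted p = 0.23). In a bulk sample, fewer cells in S phase and less of these transcripts per cell cannot be told apart.

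CDC45 (ENSG00000093009, chromosome 22, 19479459 to 19520612 on the plus strand of GRCh38 in GENCODE 29), which joins the MCM ring to form the replicative helicase, had the largest negative interaction of the genes named by the rule. Its level was 31.2, 40.4 and 37.7 FPKM in DMSO, 20.7, 21.4 and 20.9 in ELI, 38.6, 40.3 and 43.6 in ABT, and 8.13, 7.88 and 7.93 in Comb. Eliglustat libraries were low, venetoclax libraries overlapped with DMSO, and all Comb libraries were far below both. The sum of the log2 differences gave an expected 23.7 FPKM, and the interaction was -1.46 (SE 0.12, limma adjusted p = 3.5e-05).

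All 6 subunits of the MCM2 to MCM7 helicase ring were called below the sum, with interactions from -1.19 to -0.82. MCM3 (ENSG00000112118, chromosome 6, 52264009 to 52284881, minus strand) was at 120.5, 131 and 126 FPKM in DMSO, 81.1, 85.3 and 84.5 in ELI, 140.5, 139 and 146 in ABT, and 45.8, 42.7 and 45.7 in Comb. Venetoclax libraries were above all DMSO libraries when given alone and below all eliglustat libraries when given with eliglustat, without overlap. The interaction of MCM3 was -1.06 (SE 0.08, limma adjusted p = 2.5e-05). MCM4 did the same, with an interaction of -1.19 (SE 0.08, limma adjusted p = 1.1e-05). The 4 GINS subunits, which complete the helicase with CDC45, were also called, from -1.19 in GINS2 to -0.87 in GINS4.

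Among the 6 subunits of the origin recognition complex the response was split. ORC1, the subunit that cycles with the cell cycle in human cells, had an interaction of -1.18 (SE 0.13, limma adjusted p = 0.00025), and ORC6 one of -1.07. ORC2 to ORC5 were not called, with interactions from 0.15 in ORC3 to 0.42 in ORC4. CDC6 acts with ORC to load MCM rings onto DNA. It was at 31.7, 29.9 and 31.8 FPKM in DMSO and 8.43, 8.37 and 8.61 in Comb. A Comb level of 20.5 was expected from ELI (20.5 to 21.7) and ABT (28.2 to 31.7). The interaction of CDC6 was -1.19 (SE 0.09, limma adjusted p = 2.5e-05).

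Enzymes that make and join DNA showed the same direction. RRM2, the cycling subunit of ribonucleotide reductase, was at 73.6, 72.5 and 71.9 FPKM in DMSO, 48.6, 49.4 and 48.6 in ELI, 72.1, 73.1 and 70.7 in ABT, and 20.4, 19.8 and 20.9 in Comb. Venetoclax libraries of RRM2 overlapped with DMSO, while its Comb libraries were all under 21 FPKM where 48.4 was expected. The interaction was -1.21 (SE 0.07, limma adjusted p = 5.3e-06), the smallest adjusted p among the named genes together with HMOX1. The thymidine kinase TK1 (-1.26, SE 0.14, limma adjusted p = 0.00028), the flap endonuclease FEN1 (-1.19, SE 0.09, limma adjusted p = 2.5e-05) and the histone chaperone ASF1B (-1.25, SE 0.14, limma adjusted p = 0.00025) were called too. Of 7 subunits of DNA polymerases alpha, delta and epsilon on the list, 5 were called below the sum.

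**Figure D2:**
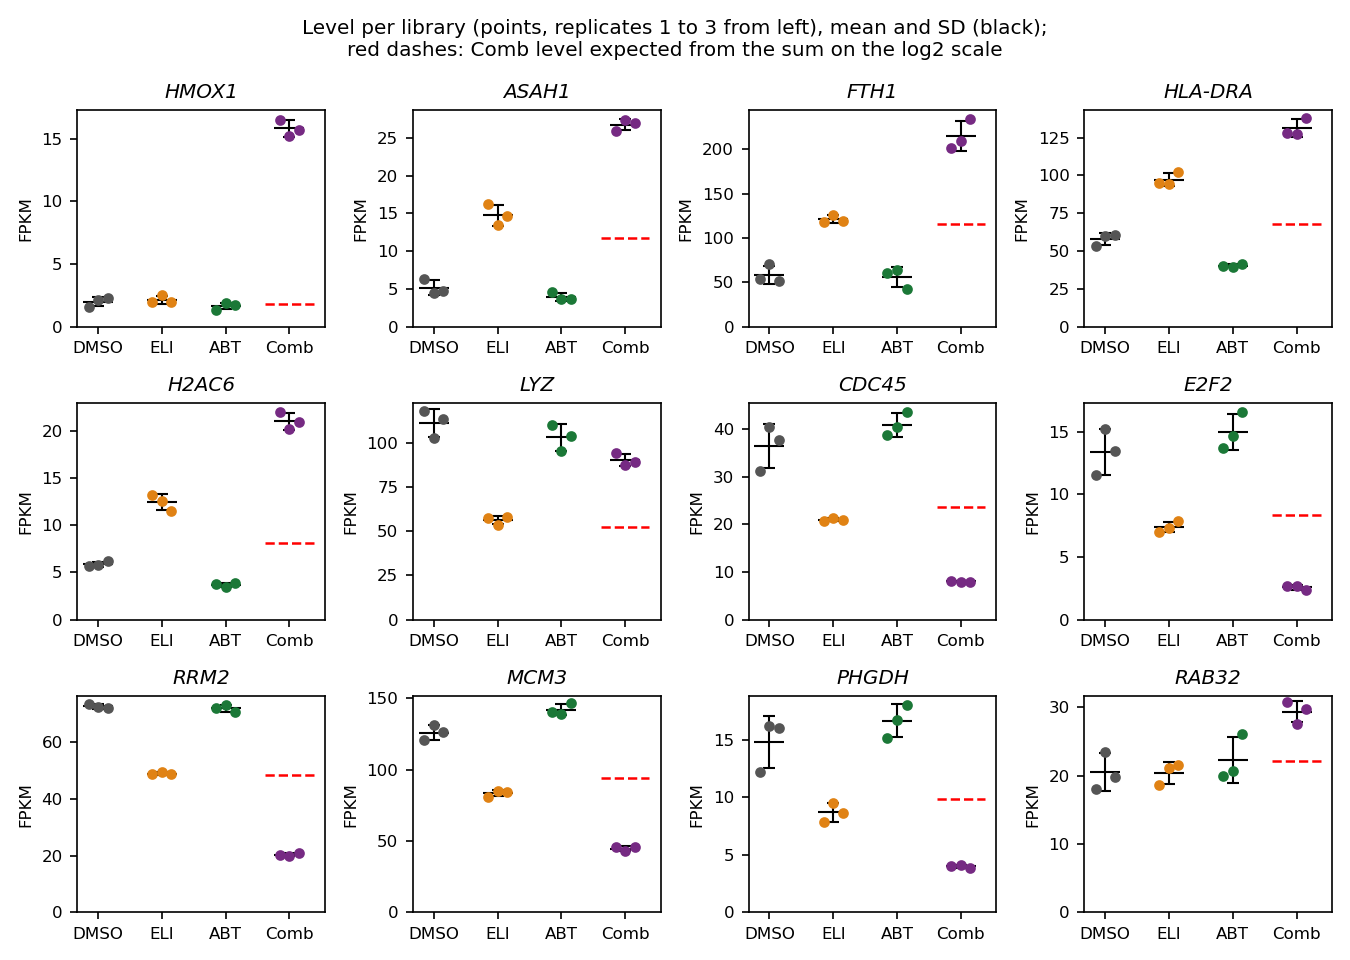
FPKM of 12 named genes in each of the 12 libraries (points, replicates 1 to 3 from left to right), with the mean and SD of 3 libraries per group in black and the Comb level expected from the sum on the log2 scale as a red dashed line. For HMOX1, ASAH1, H2AC6, CDC45, E2F2, RRM2 and MCM3 the Comb libraries lie far from the dashed line, whereas LYZ in Comb lies between its ELI and DMSO levels.

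Of 29 tested E2F factors and G1/S regulators, 10 were called below the sum and 1 above it (CDKN2B, 0.40, limma adjusted p = 0.049), with a median of -0.41. Without the libraries numbered 1 there were 13 below the sum and 2 above it, and with the trend removed 15 and 2. The call of CDKN2B, a CDK inhibitor, was lost without any 1 library but DMSO replicate 2 and ELI replicate 1. Of 7 tested E2F factors, the activators E2F1 and E2F2 and the repressors E2F7 and E2F8 were called. E2F3 (-0.08, limma adjusted p = 0.65), E2F4 (-0.21, limma adjusted p = 0.33) and E2F6 (-0.08, limma adjusted p = 0.59) were not.

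E2F2 (ENSG00000007968, chromosome 1, 23506430 to 23531220, minus strand) was at 11.6, 15.2 and 13.4 FPKM in DMSO, 7.01, 7.32 and 7.83 in ELI, 13.7, 14.7 and 16.5 in ABT, and 2.67, 2.69 and 2.34 in Comb. Every Comb library was under every eliglustat library, and venetoclax alone overlapped with DMSO. The interaction was -1.39 (SE 0.14, limma adjusted p = 0.00013). E2F7, which takes E2F sites without activating them, was at 8.91, 8.05 and 7.63 FPKM in DMSO, 6.02, 6.16 and 5.87 in ELI, 7.93, 8.23 and 8.21 in ABT, and 2.04, 1.74 and 1.84 in Comb, with an interaction of -1.28 (SE 0.10, limma adjusted p = 2.5e-05).

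CCNE1, which encodes cyclin E1, the partner of CDK2 at the entry to S phase, showed a reversal of the venetoclax difference. It was at 23.9, 28.8 and 26.0 FPKM in DMSO and 30.2, 29.5 and 33.7 in ABT, but at 16.04, 16.3 and 16.6 in ELI and 8.18, 9.13 and 8.72 in Comb. Venetoclax libraries were thus higher than their control without eliglustat and lower than it with eliglustat, with no overlap. The interaction was -1.08 (SE 0.11, limma adjusted p = 0.00015). MYBL2, a factor that acts on cell cycle promoters after E2F, had an interaction of -1.25 (SE 0.14, limma adjusted p = 0.0003), and TCF19 one of -1.26 (SE 0.11, limma adjusted p = 3.9e-05).

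Promoter windows of 3 of these genes are shown because genes with E2F letters made up a larger share of those below the sum than of all tested genes. Each line gives the 250 bases before the gene start in RefSeq on GRCh38.p14, written 5′ to 3′ on the gene's minus strand. Capitals mark the letters TTTNNCGC on either strand, where N is any base. The windows lie at chr1:23531234-23531483 for E2F2, chr16:85688955-85689204 for GINS2 and chr6:52284743-52284992 for MCM3.
E2F2: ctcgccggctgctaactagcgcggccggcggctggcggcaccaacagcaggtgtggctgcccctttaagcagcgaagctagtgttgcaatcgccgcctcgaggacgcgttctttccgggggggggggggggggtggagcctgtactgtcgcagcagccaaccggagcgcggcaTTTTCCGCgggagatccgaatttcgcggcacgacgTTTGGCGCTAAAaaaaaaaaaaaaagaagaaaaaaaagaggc
GINS2: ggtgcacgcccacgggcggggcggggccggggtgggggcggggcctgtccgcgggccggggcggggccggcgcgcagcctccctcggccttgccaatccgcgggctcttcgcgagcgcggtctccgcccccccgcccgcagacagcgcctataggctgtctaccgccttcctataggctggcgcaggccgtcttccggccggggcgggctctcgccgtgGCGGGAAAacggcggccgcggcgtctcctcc
MCM3: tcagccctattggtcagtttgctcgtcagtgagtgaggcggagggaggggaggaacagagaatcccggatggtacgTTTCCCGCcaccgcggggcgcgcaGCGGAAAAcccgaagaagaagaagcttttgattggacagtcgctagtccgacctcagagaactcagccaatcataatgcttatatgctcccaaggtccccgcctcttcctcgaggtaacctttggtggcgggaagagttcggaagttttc
In E2F2 the letters began 77, 42 and 38 bases before the start, the last pair overlapping on opposite strands, in GINS2 31 bases before it, and in MCM3 174 and 150 bases before it, with a further match across the start. They were in the window of 71 of 303 genes below the sum that matched the table (23.4%), against 11.4% of 8178 tested genes, 7.2% of genes above the sum and 6.9% of all 27305 promoters, counting 1 window of 300 bases per gene (250 before to 50 after the start). Only 7 of the 27 named genes below the sum that were looked up and had a window held them, and CDC45, RRM2 and TK1 did not. MCM4 was not looked up for this count of named genes. The CCAAT letters were in 49.8% of the windows of genes below the sum, 37.4% of tested genes and 35.7% of all promoters. TTTGAA, the letters of the CHR element of late cell cycle genes, were in 18.5%, 9.79% and 15.4%. The letters TTT are shared by the E2F and CHR letters. A match is a description of the sequence and not evidence of a bound site, and genes below the sum had a median GC content of 50.7% against 48.7% over all tested genes.

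Of 46 tested genes of mitosis and the kinetochore, 28 were called below the sum and none above it, with a median of -0.65. The count was 29 without the libraries numbered 1, 38 with the trend removed, and leaving out single libraries gave 25 to 31. The range ran from -1.18 in CENPM to 0.25 in TTK. All 4 genes of the chromosomal passenger complex, AURKB, INCENP, BIRC5 and CDCA8, were called, from -0.95 to -0.78. Genes with positive values that were not called included TOP2A (0.13, limma adjusted p = 0.88), CENPF (0.15, limma adjusted p = 0.88) and ASPM (0.16, limma adjusted p = 0.84). TOP2A had means of 78.2 FPKM under vehicle, 77.1 under eliglustat, 45.3 under venetoclax and 50.9 under both, with an SE of 0.47 for the interaction.

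SKA1, a kinetochore subunit that tracks microtubule ends, was below the sum with both single-drug means within 0.25 of DMSO on the log2 scale. It was at 29.6, 31.2 and 29.5 FPKM in DMSO, 28.5, 28.1 and 26.9 in ELI, 28.4, 29.3 and 29.8 in ABT, and 14.1, 13.6 and 14.1 in Comb. Eliglustat libraries of SKA1 lay slightly below all DMSO libraries, venetoclax libraries overlapped with DMSO, and Comb libraries were all near 14 FPKM, where 27.0 was expected. The interaction was -0.91 (SE 0.08, limma adjusted p = 3.9e-05). Called genes with both single-drug means within 0.25 of DMSO numbered 81 of the 365 below the sum and 48 of the 167 above it. The share of such genes over all tested genes is not given here. The kinesin KIFC1 (-1.02, SE 0.10, limma adjusted p = 0.00012), the centromere protein CENPM (-1.18, SE 0.15, limma adjusted p = 0.00065) and the CENPA chaperone HJURP (-0.87, SE 0.09, limma adjusted p = 0.00014) were called as well.

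Of 29 tested genes of homologous recombination and Fanconi repair, 12 were called below the sum and none above it, with a median of -0.48, and all 29 had a negative interaction. The count was 16 without the libraries numbered 1 and 23 with the trend removed. FANCA, a core subunit of the Fanconi ubiquitin ligase, was at 7.67, 8.74 and 8.26 FPKM in DMSO, 5.24, 5.35 and 4.80 in ELI, 8.12, 8.38 and 8.81 in ABT, and 2.33, 2.29 and 2.35 in Comb. All Comb libraries were below 3 FPKM, where 5.27 was expected. FANCA had an interaction of -0.92 (SE 0.09, limma adjusted p = 0.00015), the recombination motor RAD54L one of -1.14 (SE 0.13, limma adjusted p = 0.00026), and RMI2 one of -0.93 (SE 0.11, limma adjusted p = 0.00033).

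Of 30 tested genes of the integrated stress response, 4 were called below the sum and 2 above it, with a median of -0.22 and a range from -1.11 to 0.81. With the trend removed 10 were below it and 1 above it. PHGDH, the first enzyme of serine synthesis, was at 12.2, 16.3 and 16.1 FPKM in DMSO, 7.87, 9.54 and 8.66 in ELI, 15.2, 16.7 and 18.1 in ABT, and 4.07, 4.13 and 3.84 in Comb. Its Comb libraries were lowest and did not overlap with any other group, and the interaction was -1.11 (SE 0.15, limma adjusted p = 0.00088). PSAT1, the next enzyme of the pathway, was at 86.5, 98.6 and 91.8 FPKM in DMSO, 74.6, 75.8 and 73.7 in ELI, 106, 108 and 105 in ABT, and 45.1, 40.8 and 46.3 in Comb, with an interaction of -0.95 (SE 0.09, limma adjusted p = 0.00011). Venetoclax libraries of PSAT1 were above their control without eliglustat and below it with eliglustat. The mitochondrial serine enzyme SHMT2 (-0.59, SE 0.15, limma adjusted p = 0.041) and the pseudokinase TRIB3 (-0.59, SE 0.14, limma adjusted p = 0.029) were the other calls below the sum, each lost without any 1 ELI or Comb library or ABT replicate 2 or 3, and SHMT2 also without DMSO replicate 3. The stress factors ATF4 (-0.23, limma adjusted p = 0.27) and DDIT3 (0.05, limma adjusted p = 0.77) were not called. The lipoprotein receptor VLDLR (0.53, SE 0.09, limma adjusted p = 0.0048, but 0.058 with the trend removed) and SLC7A11 were called above the sum. The count below the sum was 2 when any 1 ELI or Comb library or ABT replicate 2 or 3 was left out, and 8 without DMSO replicate 2 or without the libraries numbered 1.

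**Figure D3:**
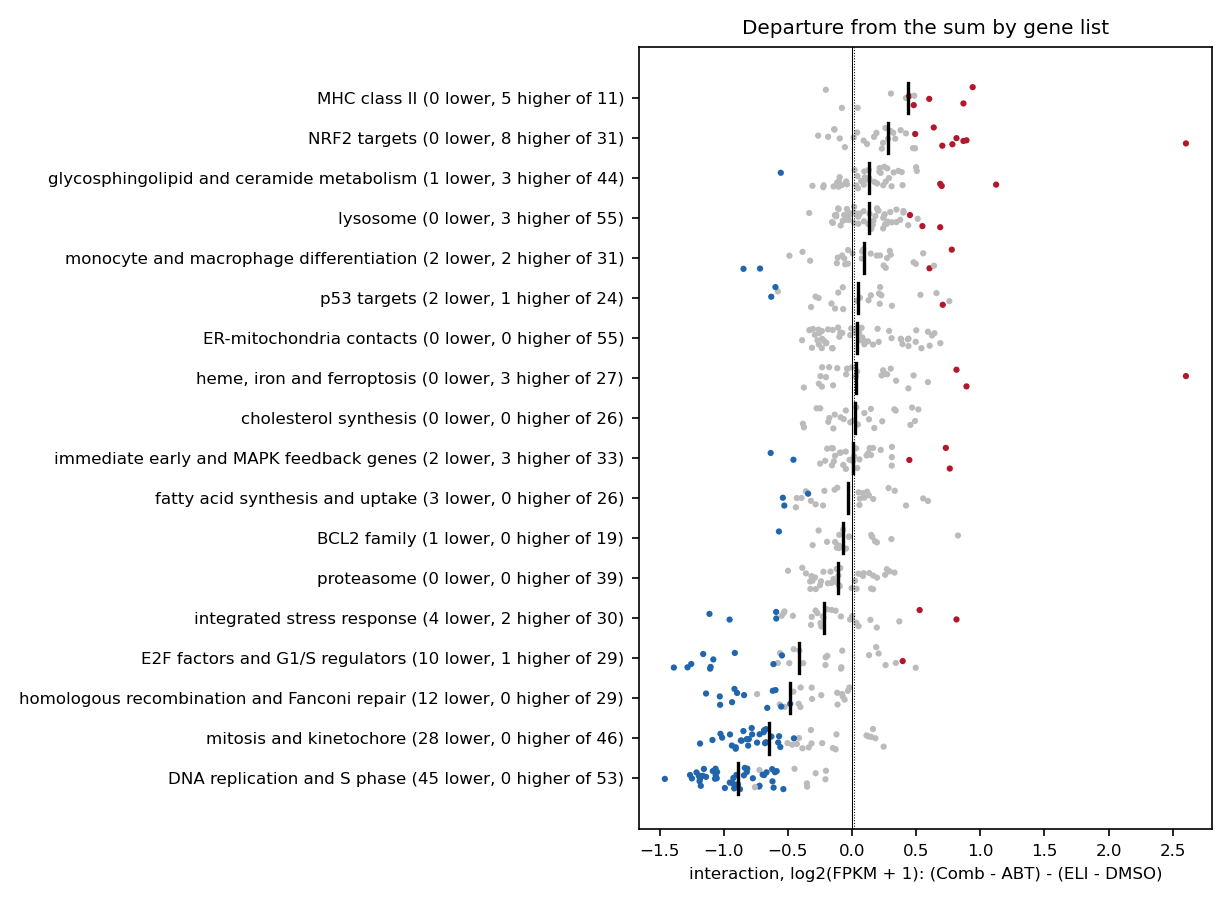
Interaction of each tested member (points) of 18 gene lists on the log2(FPKM + 1) scale, with called genes above the sum in red and below it in blue, other genes in grey, and the median of each list as a black bar. Replication, mitosis and repair lists have their medians to the left of 0, the list of MHC class II has its median at 0.44, and the contact site list is centred at 0.04 with no called gene.

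HMOX1 (ENSG00000100292, chromosome 22, 35380361 to 35394214, plus strand), the heme oxygenase that breaks heme into biliverdin, iron and carbon monoxide, departed most from the sum. It was at 1.56, 2.15 and 2.25 FPKM in DMSO, 1.96, 2.52 and 1.95 in ELI, 1.35, 1.85 and 1.70 in ABT, and 16.5, 15.2 and 15.7 in Comb. DMSO libraries overlapped with those of each single drug, ELI libraries lay above all ABT libraries, and every Comb library was far above these 3 groups. The expected level was 1.77 FPKM, and the interaction was 2.60 (SE 0.15, 95% interval 2.27 to 2.94, limma adjusted p = 5.3e-06), called in all 23 settings.

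Of 31 tested NRF2 targets, the antioxidant and detoxification genes to which HMOX1 belongs, 8 were called above the sum and none below it, with a median of 0.28. There were 12 without the libraries numbered 1 and 11 with the trend removed. The count was 4 or 5 when ELI replicate 2 or 3, ABT replicate 2 or 3, or any 1 Comb library was left out. NQO1, a quinone reductase, was at 10.5, 12.4 and 12.4 FPKM in DMSO, 13.6, 14.1 and 13.7 in ELI, 13.2, 13.8 and 15.6 in ABT, and 27.4, 25.3 and 26.6 in Comb. Each single drug gave slightly higher values than DMSO, and Comb libraries were all above 25 FPKM, where 16.6 was expected (interaction 0.64, SE 0.11, limma adjusted p = 0.0053). The heme transporter SLC48A1 was at 1.92 to 2.48 FPKM in DMSO, 1.86 to 1.99 in ELI, 2.26 to 2.53 in ABT and 3.71 to 4.15 in Comb (interaction 0.70, SE 0.11, limma adjusted p = 0.002). NFE2L2, which encodes NRF2 itself, was not called (0.48, SE 0.26, limma adjusted p = 0.30), nor were TXNRD1 (0.26, limma adjusted p = 0.23) and GSR (0.01, limma adjusted p = 0.95).

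Of the other called members, CES1 kept its call without each single library in turn and is described below, while FTH1, GCLM, SLC7A11 and MGST1 did not. FTH1, the heavy chain of the iron store ferritin, was at 53.3, 70.4 and 51.1 FPKM in DMSO, 118, 126 and 119 in ELI, 59.9, 64.0 and 43.0 in ABT, and 201, 209.9 and 234 in Comb. Comb libraries were highest and eliglustat libraries next, without overlap. The interaction of FTH1 was 0.89 (SE 0.21, limma adjusted p = 0.027), lost without any 1 ELI library or Comb replicate 2 or 3 (limma adjusted p = 0.056 to 0.079), and many processed pseudogenes of FTH1 make its read assignment uncertain. GCLM, the modifier subunit of glutamate-cysteine ligase, was at 7.94, 5.17 and 6.96 FPKM in DMSO, 9.41, 8.12 and 8.04 in ELI, 7.35, 6.28 and 5.28 in ABT, and 15.0, 14.8 and 14.1 in Comb. Its interaction was 0.78 (SE 0.19, limma adjusted p = 0.031). The cystine importer SLC7A11 had one of 0.81 (SE 0.20, limma adjusted p = 0.032). Both calls were lost without ELI replicate 2 or 3, ABT replicate 2 or 3 or any 1 Comb library, and that of GCLM also without DMSO replicate 3 (limma adjusted p = 0.065 to 0.095 over both genes). MGST1, a microsomal glutathione transferase, had an interaction of 0.49 (SE 0.12, limma adjusted p = 0.039), lost without DMSO replicate 3 and the same 7 libraries, and its adjusted p was 0.95 with the trend removed.

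The window of GCLM is shown because it holds the letters of an antioxidant response element, to which NRF2 binds. The line gives the 250 bases before the start at chr1:93909431-93909680 of GRCh38.p14 in RefSeq, 5′ to 3′ on the minus strand, and capitals mark the letters TGACNNNGC, here on the opposite strand, beginning 34 bases before the start.
GCLM: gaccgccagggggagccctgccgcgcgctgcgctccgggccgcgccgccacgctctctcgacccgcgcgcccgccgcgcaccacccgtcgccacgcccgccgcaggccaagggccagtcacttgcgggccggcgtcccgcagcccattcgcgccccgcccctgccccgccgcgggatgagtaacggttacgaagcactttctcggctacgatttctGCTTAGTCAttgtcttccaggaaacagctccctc
These letters were in 17.6% of 125 windows of genes above the sum, 15.5% of tested genes and 13.6% of all promoters, so the share was near the background. The windows of NQO1 and SLC48A1, also called NRF2 targets, did not hold them. Those of HLA-DPA1, DUSP1, A4GALT and VLDLR, which are not on the NRF2 list, did. The letters TGANTCA of an AP-1 site can overlap with those of the antioxidant response element. They were in 11 of 125 windows of genes above the sum (8.8%), 4.07% of tested genes, 1.65% of genes below it and 7.76% of all promoters.

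Of 44 tested genes of glycosphingolipid and ceramide metabolism, 3 were called above the sum and 1 below it, with a median of 0.13. Without the libraries numbered 1 there were 10 above and 1 below, and with the trend removed 7 and 1. Over all 9959 tested genes, the same settings gave 1072 above and 729 below, and 688 above and 1006 below. The gene below the sum was SMPD4, a sphingomyelinase (-0.55, SE 0.12, limma adjusted p = 0.022), lost without ELI replicate 2 or 3, ABT replicate 2 or 3 or any 1 Comb library. ASAH1 (ENSG00000104763), the acid ceramidase of the lysosome, was at 6.33, 4.49 and 4.68 FPKM in DMSO, 16.2, 13.4 and 14.6 in ELI, 4.58, 3.72 and 3.63 in ABT, and 26.0, 27.4 and 26.9 in Comb. Eliglustat libraries were high and Comb libraries higher still, while venetoclax alone overlapped with DMSO. The expected level was 11.7 FPKM, and the interaction was 1.12 (SE 0.16, 95% interval 0.77 to 1.47, limma adjusted p = 0.0012), called in all 23 settings.

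A4GALT, the galactosyltransferase that makes globotriaosylceramide downstream of UGCG, was at 0.897, 1.05 and 1.32 FPKM in DMSO, 1.23, 1.65 and 1.34 in ELI, 1.73, 1.90 and 1.64 in ABT, and 4.15, 4.20 and 4.09 in Comb. Comb libraries were all above 4 FPKM and no other library reached 2. The interaction of A4GALT was 0.70 (SE 0.12, limma adjusted p = 0.0052). PSAP, the precursor of the saposins that present sphingolipids to lysosomal hydrolases, was at 64.5 to 85.4 FPKM in DMSO, 83.03 to 95.6 in ELI, 62.2 to 75.1 in ABT and 128 to 134 in Comb (interaction 0.69, SE 0.14, limma adjusted p = 0.014). UGCG itself was not called, with an interaction of 0.22 (SE 0.21, 95% interval -0.24 to 0.68, limma adjusted p = 0.52).

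Of 55 tested lysosomal genes, 3 were called above the sum and none below it, with a median of 0.13. Besides PSAP these were MANBA, the lysosomal beta-mannosidase (0.55, SE 0.12, limma adjusted p = 0.017), and SCARB2, a lysosomal membrane protein (0.45, SE 0.12, limma adjusted p = 0.045). MANBA was lost without ELI replicate 3, ABT replicate 2 or Comb replicate 1 or 2, and SCARB2 without any 1 library but DMSO replicate 2 and ABT replicate 1. The count was 1 in each of these 4 cases, 5 without ABT replicate 1, and 7 with either DMSO replicate 2 or the libraries numbered 1 left out. With the trend removed 12 were above the sum and 1 below it. GNPTAB, which tags enzymes for delivery to lysosomes, was at 5.11, 3.11 and 3.34 FPKM in DMSO, 8.98, 7.55 and 8.07 in ELI, 3.33, 2.44 and 2.14 in ABT, and 11.5, 12.2 and 11.1 in Comb. Its interaction was 0.86 (SE 0.21, limma adjusted p = 0.034), lost without ELI replicate 2 or 3, ABT replicate 2 or 3 or any 1 Comb library (limma adjusted p = 0.069 to 0.097).

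MHC class II molecules present peptides on monocytes and other antigen-presenting cells. Of 11 tested genes of this system, 5 were called above the sum and none below it, with a median of 0.44. There were 6 without the libraries numbered 1 and 7 with the trend removed. The count fell to 3 without DMSO replicate 3, ELI replicate 1 or 2, ABT replicate 2 or Comb replicate 1, and to 2 without ELI replicate 3. HLA-DRA (ENSG00000204287, chromosome 6, 32439842 to 32445046, plus strand), the alpha chain of HLA-DR, was at 53.4, 60.0 and 60.5 FPKM in DMSO, 95.3, 94.3 and 102 in ELI, 40.1, 39.4 and 41.4 in ABT, and 128, 127 and 138 in Comb. Venetoclax libraries were below DMSO when given alone and above eliglustat libraries when given with eliglustat, without overlap either time. The interaction was 0.94 (SE 0.09, 95% interval 0.74 to 1.14, limma adjusted p = 0.00012).

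HLA-DPA1 had the same pattern, at 4.09 to 4.22 FPKM in DMSO, 5.43 to 5.999 in ELI, 2.36 to 2.83 in ABT and 7.22 to 7.81 in Comb (interaction 0.87, SE 0.10, limma adjusted p = 0.00024). CIITA, the master activator of class II promoters, was at 1.66 to 1.97 FPKM in DMSO, 3.05 to 3.51 in ELI, 1.65 to 1.71 in ABT and 4.41 to 4.58 in Comb. Its interaction was 0.44 (SE 0.09, limma adjusted p = 0.015), lost without ELI replicate 3 (limma adjusted p = 0.052). The chaperone CD74 was not called (0.42, limma adjusted p = 0.11), and HLA-DRB1 (0.48, limma adjusted p = 0.025) shares reads with near-identical copies. The calls of HLA-DRB1 and of HLA-DMA, a chain of the peptide loading complex (0.60, limma adjusted p = 0.023), were each lost without 7 of the 12 libraries, taken 1 at a time. The 5 B cell markers had a summed level of 5.11 to 6.62 FPKM in DMSO, 2.22 to 3.27 in ELI, 4.27 to 5.35 in ABT and 1.86 to 2.27 in Comb, with MS4A1 at 0.01 FPKM or less in every library, and their part in these results was not tested.

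**Figure D4:**
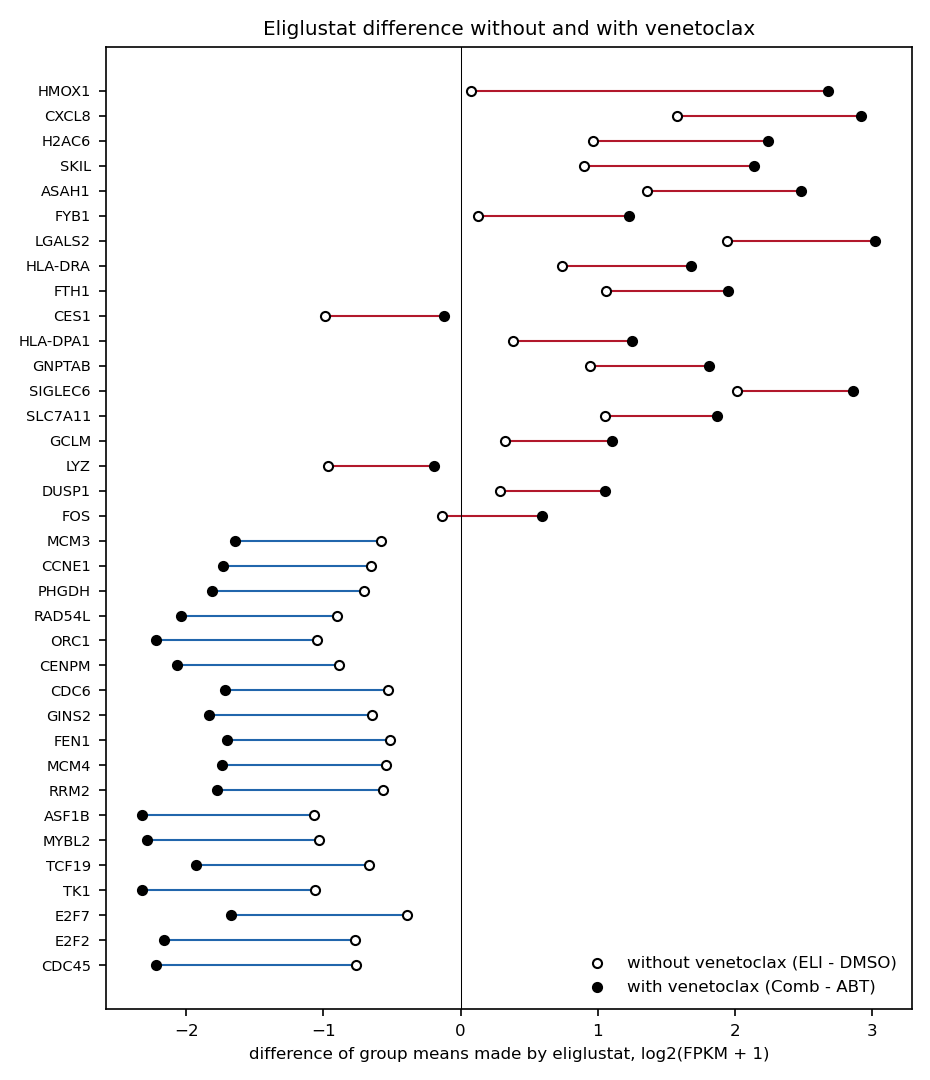
Difference of group means made by eliglustat without venetoclax (ELI minus DMSO, open circles) and with it (Comb minus ABT, filled circles) for 36 called named genes, on the log2(FPKM + 1) scale. The length of each line is the interaction (red above the sum, blue below it), 2.60 for HMOX1 and -1.46 for CDC45, and the filled circles of CES1 and LYZ lie nearer to 0 than their open circles.

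Genes with the largest positive interactions outside these lists were diverse. SKIL, a repressor of SMAD signalling, was at 4.79, 2.36 and 2.90 FPKM in DMSO, 8.06, 6.24 and 6.55 in ELI, 3.16, 2.53 and 1.91 in ABT, and 13.6, 15.1 and 14.6 in Comb. Eliglustat libraries of SKIL were above DMSO and Comb libraries above those, with no overlap, and the interaction was 1.24 (SE 0.26, limma adjusted p = 0.015). H2AC6, a histone H2A gene, was at 5.66, 5.79 and 6.18 FPKM in DMSO, 13.3, 12.6 and 11.5 in ELI, 3.73, 3.46 and 3.84 in ABT, and 22.0, 20.2 and 20.9 in Comb (interaction 1.27, SE 0.10, limma adjusted p = 2.5e-05). Venetoclax libraries of H2AC6 were below their control without eliglustat and above it with eliglustat, and reads of this gene can be shared with near-identical histone copies. LGALS2, a galectin, was at 2.25 to 2.99 FPKM in DMSO, 11.6 to 13.7 in ELI, 1.26 to 1.81 in ABT and 17.6 to 22.3 in Comb (interaction 1.08, SE 0.16, limma adjusted p = 0.0015).

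Calls of CXCL8, FYB1 and SIGLEC6 depended on single libraries. CXCL8, a chemokine for neutrophils, was at 8.82, 4.46 and 5.38 FPKM in DMSO, 23.5, 17.4 and 19.3 in ELI, 4.52, 2.40 and 2.08 in ABT, and 26.8, 29.5 and 28.4 in Comb. Eliglustat and Comb libraries were high and DMSO replicate 1 was the highest of its group. The interaction of CXCL8 was 1.34 (SE 0.33, limma adjusted p = 0.035), and it was lost without any 1 library but DMSO replicates 1 and 2 and ABT replicate 1 and ELI replicate 1 (limma adjusted p = 0.058 to 0.099). The adhesion adaptor FYB1 (1.10, SE 0.26, limma adjusted p = 0.029) was lost without ELI replicate 2 or 3, ABT replicate 2 or 3 or any 1 Comb library. The sialic acid receptor SIGLEC6 (0.85, SE 0.19, limma adjusted p = 0.021) was lost without ELI replicate 2 or 3, ABT replicate 2 or any 1 Comb library. Over both genes the adjusted p was 0.056 to 0.086.

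In 16 genes above the sum, Comb was not the highest group. LYZ, the lysozyme of monocytes and granulocytes, was at 118, 103 and 114 FPKM in DMSO, 57.5, 53.7 and 58.1 in ELI, 110.4, 95.3 and 104 in ABT, and 94.1, 87.8 and 89.2 in Comb. Eliglustat alone gave levels near 56 FPKM, and Comb libraries lay between these and the vehicle libraries. The expected level was 52.3 FPKM and the interaction 0.78 (SE 0.10, limma adjusted p = 0.00079). The carboxylesterase CES1 was at 12.5, 16.7 and 13.1 FPKM in DMSO, 5.57, 7.02 and 7.11 in ELI, 10.3, 11.2 and 12.2 in ABT, and 10.1, 9.93 and 10.7 in Comb (interaction 0.87, SE 0.16, limma adjusted p = 0.0067). Comb libraries of CES1 were above all eliglustat libraries and below all vehicle libraries.

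FOS, an immediate early gene of the AP-1 factor, showed the other form, in which venetoclax alone was low. It was at 37.2, 36.7 and 34.3 FPKM in DMSO, 34.4, 30.4 and 33.4 in ELI, 23.2, 20.6 and 23.0 in ABT, and 34.0, 34.9 and 33.4 in Comb. Comb libraries lay among those of DMSO and ELI, and the interaction was 0.73 (SE 0.10, limma adjusted p = 0.00083). The MAPK phosphatase DUSP1 (0.76, SE 0.16, limma adjusted p = 0.017, lost without ABT replicate 2 or Comb replicate 3) was called above the sum. Another AP-1 subunit, FOSL2, was called below it (-0.46, SE 0.11, limma adjusted p = 0.027, lost without any 1 library but DMSO replicates 1 and 2, ELI replicate 1 and ABT replicate 1). Of 33 tested immediate early and MAPK feedback genes, 3 were called above the sum and 2 below it, with a median of 0.01. The count above was 1 without ABT replicate 2 or Comb replicate 3. The count below was 0 without DMSO replicate 3, ELI replicate 2 or 3, ABT replicate 2 or 3, or Comb replicate 2 or 3. With the trend removed 7 were above it and 2 below.

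Of 5 genes below the sum in which Comb was not the lowest group, FADS1, a fatty acid desaturase, was named by the rule. It was at 38.03, 41.9 and 41.0 FPKM in DMSO, 56.7, 60.1 and 58.5 in ELI, 39.3, 42.0 and 40.9 in ABT, and 41.2, 39.1 and 40.7 in Comb. The higher level under eliglustat alone was absent in Comb, where 59.0 FPKM was expected and all libraries lay within the range of vehicle (interaction -0.54, SE 0.08, limma adjusted p = 0.0023). Of 26 tested genes of fatty acid synthesis and uptake, 3 were called below the sum and none above it, the others being ACSL5 (-0.53, SE 0.11, limma adjusted p = 0.015, lost without ELI replicate 3 or Comb replicate 3) and SCD5 (-0.34, SE 0.09, limma adjusted p = 0.041, lost without any 1 library but DMSO replicates 1 and 2, and without the libraries numbered 1). The count below the sum was 9 with the trend removed (2 above), 7 without DMSO replicate 2 or without the libraries numbered 1, and 1 without ELI replicate 3 or Comb replicate 3. None of 26 tested genes of cholesterol synthesis was called by limma, with 5 at an unadjusted p under 0.05 and 0 by voom on recovered reads, while 2 were above it and 1 below with the trend removed.

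Monocyte genes moved both ways. Of 31 tested genes of monocyte and macrophage differentiation, 2 were called above the sum and 2 below it, with a median of 0.09. The count above was 4 without DMSO replicate 1 or ABT replicate 1. The count below was 1 without ELI replicate 3, ABT replicate 3 or Comb replicate 2, and 3 without DMSO replicate 2 or 3 or ABT replicate 1. There were 6 above and 3 below without the libraries numbered 1, and 7 and 4 with the trend removed. MPEG1, a pore-forming protein of macrophages, was at 69.2, 64.5 and 64.0 FPKM in DMSO, 58.2, 60.1 and 58.3 in ELI, 46.2, 41.1 and 43.5 in ABT, and 21.7, 20.7 and 21.2 in Comb. Comb libraries were lowest, at about 21 FPKM where 38.9 was expected (interaction -0.85, SE 0.09, limma adjusted p = 0.00014). CHI3L1, a secreted chitinase-like protein, was at 37.5, 45.7 and 43.7 FPKM in DMSO, 114, 122 and 117 in ELI, 44.7, 50.02 and 50.7 in ABT, and 207, 199 and 209.6 in Comb, where 135 was expected (interaction 0.60, SE 0.11, limma adjusted p = 0.0069). The summed level of the 12 myelomonocytic markers was 647 to 678 FPKM in DMSO, 677 to 693 in ELI, 596 to 644 in ABT and 706 to 713 in Comb, and its part in these results was not tested.

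Of 19 tested genes of the BCL2 family 1 was called below the sum (5.26%, against 3.67% of all tested genes), BCL2L12 (-0.57, limma adjusted p = 0.012), and none above it, with a median of -0.07. There were 2 below it and 1 above it with the trend removed. Of 21 tested genes of caspases and the apoptosome, CFLAR, which encodes the caspase 8 inhibitor FLIP, was above the sum (0.48, SE 0.10, limma adjusted p = 0.014) and BIRC5, which encodes survivin, below it (-0.82, SE 0.14, limma adjusted p = 0.0051), and both calls stayed without each single library in turn. The range of this list was -0.82 to 0.76 and its median 0.05, and with the trend removed 2 were above the sum and 3 below. BCL2, the target of venetoclax, had an interaction of 0.15 (SE 0.14, 95% interval -0.15 to 0.45, limma adjusted p = 0.51). MCL1 (-0.05, limma adjusted p = 0.80) and BCL2L11, which encodes BIM (0.19, limma adjusted p = 0.32), were not called. Of 24 tested p53 targets, the stress protein TP53INP1 was above the sum (0.71, SE 0.11, limma adjusted p = 0.0022), but not with the trend removed (0.072). The repair factor DDB2 (-0.60, SE 0.13, limma adjusted p = 0.019) and the nuclease AEN (-0.63, SE 0.14, limma adjusted p = 0.022) were below it. DDB2 was lost without DMSO replicate 3, ELI replicate 2 or 3, ABT replicate 2 or Comb replicate 3. AEN was lost without any 1 of DMSO replicate 3, ELI replicates 2 and 3, ABT replicates 2 and 3 and the Comb libraries. With the trend removed 3 p53 targets were above the sum and 3 below, and without the libraries numbered 1 there were 4 and 3.

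RAB32 was at 18.1, 23.5 and 19.8 FPKM in DMSO, 18.6, 21.1 and 21.6 in ELI, 19.98, 20.7 and 26.1 in ABT, and 30.7, 27.6 and 29.8 in Comb. Comb libraries were above the other 9, where 22.1 FPKM was expected. Its interaction was 0.39 (SE 0.16, limma adjusted p = 0.18) and was not called. The 95% interval before adjustment over genes was 0.05 to 0.74, and the gene was called in 2 of 23 other settings, those with the GC content and length trend removed (limma adjusted p = 0.023 in the fit without the block). None of 55 tested genes of ER-mitochondria contacts, a list that holds RAB32, was called by limma, with a median of 0.04. At an unadjusted p under 0.05 there were 17, 9 above and 8 below the sum, and voom on recovered reads called 1. The count was 13 without the libraries numbered 1, 9 above and 4 below, and 11 with the trend removed, 7 above and 4 below. Over all 9959 tested genes, these settings gave 1072 above and 729 below, and 688 above and 1006 below.

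Several lists held no call by limma. Of 13 mitochondrially encoded genes none was called, with none at an unadjusted p under 0.05 and none by voom. None of 39 proteasome genes was called (9 at an unadjusted p under 0.05, 0 by voom), none of 19 genes of the KMT2A fusion programme (2 and 1), none of 16 genes of FLT3, STAT5 and PIM signalling (2 and 0) and none of 27 genes of glycolysis and hypoxia (7 and 0). A p that misses the threshold does not show that these genes were unaffected. Without the libraries numbered 1, 9 proteasome genes were below the sum and 1 above, and 5 genes of the KMT2A fusion programme were above it. With the trend removed, 5 proteasome genes and 4 genes of the KMT2A fusion programme were below the sum, with none of either above it. In that setting 4 glycolysis and hypoxia genes were above the sum and 2 below. Over all 9959 tested genes, 1072 were above and 729 below without the libraries numbered 1, and 688 and 1006 with the trend removed.

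**Figure D5:**
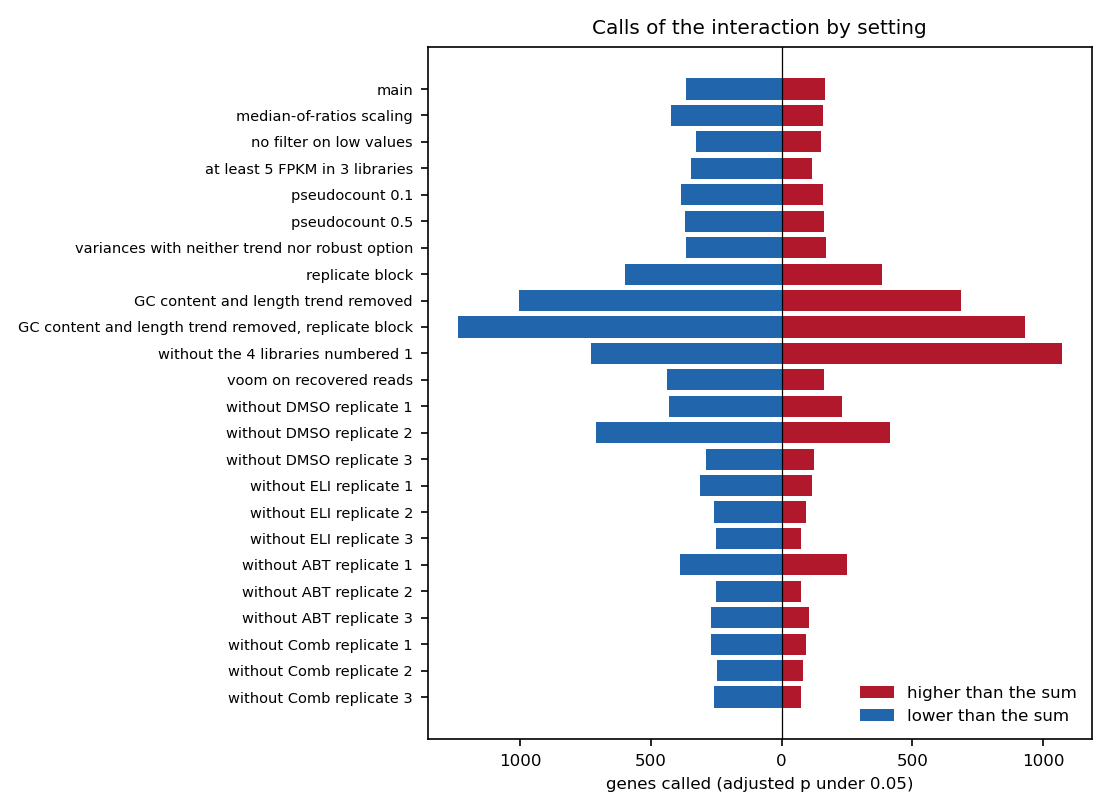
Number of genes called above the sum (red, to the right) and below it (blue, to the left) at a limma adjusted p under 0.05 with all libraries and standard settings (main, 167 and 365) and in 23 other settings. The counts run from 322 genes without ELI replicate 3 to 2170 with the GC content and length trend removed and a replicate block, and genes below the sum outnumber those above it in every setting except the one without the 4 libraries numbered 1.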

How the data were processed

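Total RNA of 12 MV-4-11 libraries was sequenced, 3 each for DMSO, ELI, ABT and Comb, and sample titles gave the groups and replicate numbers. The authors deposited 1 table of FPKM values, reads per kilobase and scaled to library reads per the file headers, for 20036 genes by Ensembl identifier. The sources used here give no aligner, counting tool, build or strand setting. FPKM scaling divides by the reads of the library, so a shift of abundant genes moves all others.

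Values were taken as log2(FPKM + 1), which understates changes of low genes, for 9959 genes of at least 1 FPKM in 3 libraries. limma 3.58.1 in R 4.3.3 fitted 4 group means with its trended and robust variance options, and Benjamini-Hochberg adjustment ran over all 9959 genes at 0.05. Of the genes tested, 954 did not reach 1 FPKM in all 12 libraries (48 called), and 24 reached it in 1 group only (3 called). Whole reads were recovered from the FPKM steps for 100.0% of 16361 genes above 0, within 1e-05 of an integer at first and then within 0.001, and gave depth and the voom alternative. The fit was also run on simulated reads with known interactions, and the outcome is not reported here and lends no support to the results. GC content came from GENCODE 29 (99.8% of genes), and each library's loess trend had degree 1 and span 0.5. Replicate numbers did not pair all groups (correlation of deviations -0.40 to 0.16 with Comb).

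Genes were named by a rule: the 14 called genes of largest interaction in each direction with a mean of at least 5 FPKM, RAB32, BCL2 and UGCG, and up to 3 called genes of smallest adjusted p from each of 39 lists with 3 or more calls, 62 in all. Other genes were named after their values were seen. Members and lists were chosen with earlier results of these data known. Promoter windows were taken from RefSeq tables of GRCh38.p14, 1 window per gene. Coordinates of genes are from GENCODE 29 on GRCh38.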

Additional observations from a re-analysis of the deposited data

Results flagged for a closer look

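The count of 532 genes is listed here because the effect of each drug differed with and without the other by a direct test, the interaction of limma. For 18 named genes the libraries of a drug and its control also did not overlap and lay in opposite order with and without the other drug. Among genes above the sum, this was so for H2AC6 (interaction 1.27), FYB1 (1.10), LGALS2 (1.08), HLA-DRA (0.94), HLA-DPA1 (0.87), CES1 (0.87), SIGLEC6 (0.85), DUSP1 (0.76), TP53INP1 (0.71), VLDLR (0.53) and SCARB2 (0.45). Among genes below the sum it was so for MCM4 (-1.19), FEN1 (-1.19), CCNE1 (-1.08), MCM3 (-1.06), PSAT1 (-0.95), AEN (-0.63) and ACSL5 (-0.53). The order of the libraries is in part a consequence of choosing genes by this contrast, so it adds no support to the calls. Its share over all tested genes is not given here.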

How the results depend on the processing

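The call counts changed most with the treatment of GC content and of the libraries numbered 1. With the replicate block there were 983 calls, 385 above and 598 below the sum, 932 with Comb as the extreme group, and 27 lists with 3 or more calls against 14. With the GC content and length trend removed there were 1694, 688 and 1006, 1505 and 34, and 139 genes below the sum held the E2F letters against 71. With both there were 2170, 932 and 1238, 1880 and 36, and 168. Without the libraries numbered 1 there were 1801, 1072 and 729, 1742 and 33. The causes were not tested. Deviations of libraries with the same number correlated at 0.24 to 0.88 among DMSO, ELI and ABT, and at -0.40 to 0.16 with Comb. They are deviations from group means, so a shared shift of the libraries numbered 1 enters all of these values. They therefore do not show that the numbers pair the groups.

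Leaving out 1 library gave 322 to 1123 calls, 73 to 415 above and 248 to 708 below the sum, 308 to 1053 with Comb as the extreme group, 8 to 28 lists and 52 to 96 genes with E2F letters. Scaling by median of ratios (582), pseudocounts of 0.1 (541) and 0.5 (532), no filter on low values (478), a minimum of 5 FPKM (463), variances with neither trend nor robust option (537) and voom (598) stayed within 1.5 times of 532. Of 1479 pairs of a named gene and a setting, 110 lost a call, 2 gained one (both RAB32) and 37 moved in size on the linear scale. None reversed. Groups of 3 libraries and 1 line limit all of these.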
